A study of Mus musculus with 20 samples.

Results

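MB49 is a mouse bladder cancer line derived from a male animal, and the series compares MB49 cells labelled Y NEGATIVE with MB49 cells labelled Y POSITIVE by RNA-seq. The quantity described here is the difference between 2 changes: the Y-negative minus Y-positive change in tumors, minus the same change in cultured cells, gene by gene on the autosomes. It draws on 4 groups of 5 libraries. The Y-negative cultures (BN2, BN3, BN6, BN9, BN10) and the Y-positive cultures (MB8, MB11, MB17, MB19, MB34) were kept in DMEM with fetal bovine serum. The Y-negative tumors (MN11 to MN15) and the Y-positive tumors (MP6 to MP10) were subcutaneous growths in wild-type C57BL/6 male mice, so that host cells in every tumor carry a Y chromosome. No other treatment is given, and the labels do not say which libraries came from separate clones, dishes or animals. All 4 groups were fitted together, so p-values for cultures and for tumors share 1 estimate of spread per gene. That spread reflects variation among the 5 libraries within each of the groups, which may be technical. Genes were taken if they were listed in the tables of cultures and of tumors and lay on chromosomes 1 to 19: 14189 of the 28076 genes listed in any table, of which 13341 had enough reads to be tested.

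When a cell line is moved from a dish to a subcutaneous site, it meets other oxygen, nutrient and matrix conditions and the rhythmic hormonal cues of the host, and the RNA of a whole tumor also holds RNA from host fibroblasts, vessels and immune cells. In bulk RNA, fewer cells of a type and less RNA per cell cannot be told apart. A genotype change can therefore be set beside the same change in culture only for genes read in both, and many marker genes of host cell types are not among them. In the cultures 2 of 18 T cell markers and 8 of 20 macrophage and monocyte markers were listed. Other types were covered better, with 12 of 20 fibroblast and collagen markers and 10 of 15 dendritic cell markers listed.

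Library totals ran from 14557118 to 21180885 reads. The Y-linked genes checked the labels first. Kdm5d, a histone demethylase gene of the Y chromosome, had 0 reads in each Y-negative culture and 103 to 685 reads in the Y-positive cultures. In tumors it had 45 to 87 reads in the Y-negative and 172 to 571 reads in the Y-positive libraries. Uty, the other Y-linked demethylase gene, had 0 or 1 read in the Y-negative cultures, 112 to 1006 in the Y-positive cultures, 42 to 85 in the Y-negative tumors and 156 to 661 in the Y-positive tumors. Culture against tumor also separates any difference of handling or of the tables' gene lists, which cannot be told apart from the setting.

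The Y-negative tumors did not form one cloud. MN11, MN13 and MN14 stood apart from MN12 and MN15, most plainly in the slope of log2(CPM + 1) on log2 gene length, where CPM stands for read counts scaled to a common library size. That slope was 0.578 to 0.61 in MN11, MN13 and MN14 and 0.322 and 0.337 in MN12 and MN15. It was 0.209 to 0.472 in the Y-positive tumors and 0.403 to 0.512 in the 10 cultures. The main counts below are therefore also given with these sets left out.

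Of the 13341 genes tested, 621 (4.65%) differed in their genotype change between tumors and cultures, by edgeR's quasi-likelihood test at a Benjamini-Hochberg adjusted p under 0.05, which is what "called" means here. The change was higher in tumors than in cultures for 291 of them (2.18% of genes tested) and lower for 330 (2.47%). The size of the difference among called genes had a median of 1.16 on the log2 scale, with an interquartile range of 0.894 to 1.53. Within tumors alone the same model called 292 genes (2.19%), 219 higher in Y-negative (1.64%) and 73 lower (0.547%). Within cultures it called 462 genes (3.46%), 350 higher in Y-negative (2.62%) and 112 lower (0.84%). Fitted on the 10 cultures alone, with no spread shared with the tumors, 1 gene was called, while tumors alone gave 287. The cause of that drop in culture calls was not tested.

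The number of called genes moved with the Y-negative tumors. Without MN12 and MN15 it was 2009, and without MN11, MN13 and MN14 it was 1, in a fit that leaves 2 Y-negative tumors. In that last fit all 621 genes kept the direction of their difference, and Ltbp2 alone kept its call. The 621 genes were picked for their difference in all 20 libraries, and this fit keeps every culture and every Y-positive tumor. A kept direction is therefore largely given in advance. Left out one at a time, MN11 (172), MN14 (203), MP8 (249), MP9 (290), MB11 (302), MN13 (313), MB8 (328), MB17 (330) and BN6 (365) lowered the count by over 1.5 times, and BN9 (1013) and MN12 (1012) raised it by as much.

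Sorted by where the change was called, 9 of the 621 genes (0.0675% of genes tested) changed in both settings with opposite signs, 134 (1.0%) changed in tumors and were not called in cultures, 205 (1.54%) changed in cultures and were not called in tumors, and 273 (2.05%) were called only as a difference. A wider reading of reversal, opposite signs with both changes at an unadjusted p under 0.05, held 250 further genes (1.87%), all of which also sit in the latter classes. Of the 621 genes, 602 (96.9%) had opposite signs in tumors and cultures, against 52.4% of all genes tested, and a test for a difference favours such genes by its construction. Genes changed in tumors only were mostly higher in Y-negative tumors (110 of 134). Those changed in cultures only were mostly higher in Y-negative cultures (161 of 205). By range, the 2 genotypes did not overlap in tumors for 186 of the 621 genes and in cultures for 179. Over all 13341 genes tested, called or not, this held for 810 (6.07%) in tumors and 513 (3.85%) in cultures. The genotypes were apart in both settings for 32 of the 621 genes and for 36 of all genes tested.

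**Figure D1:**
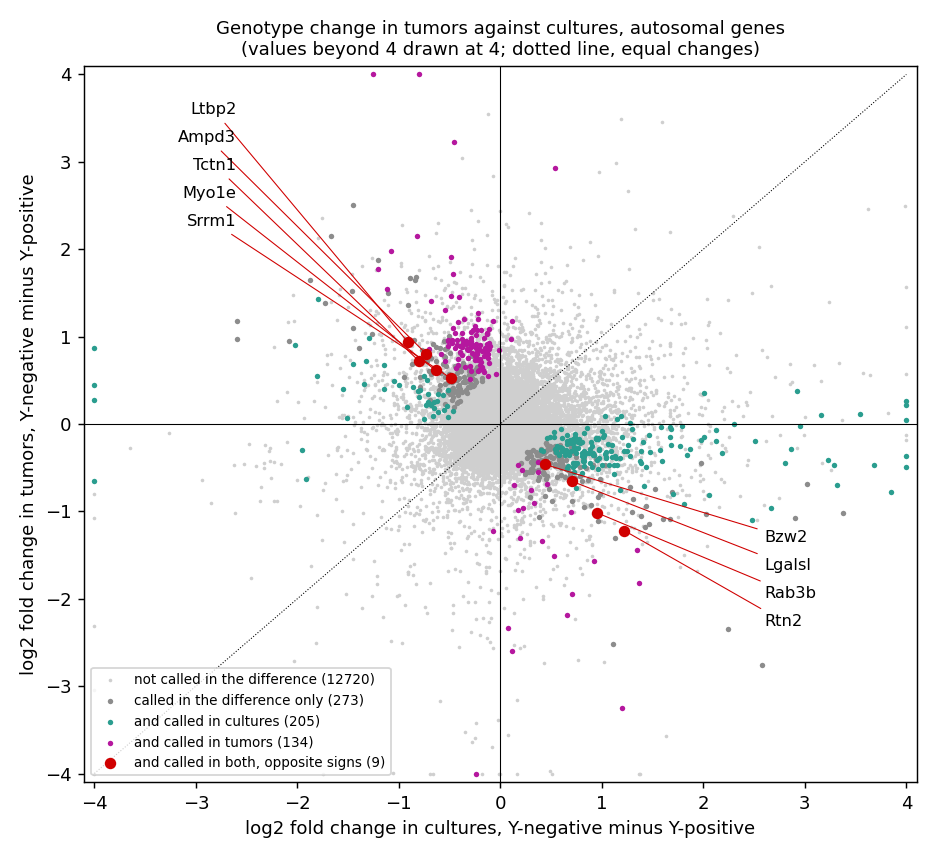
Log2 fold change of Y-negative against Y-positive libraries in cultures (horizontal axis) and in tumors (vertical axis) for the 13341 autosomal genes tested, values beyond 4 drawn at 4; colours give where each gene was called. The 621 genes called in the difference lie mostly in the upper left and lower right of the plot, and the 9 genes called in both settings with opposite signs are named.

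Across all genes the changes in the 2 settings, which share no library, were compared gene by gene: Pearson's r over genes was -0.00458 and Spearman's rho -0.0673, given as a description, since genes are not replicates. The 292 tumor calls and 462 culture calls shared 13 genes, 4.45% of the first list and 2.81% of the second. Besides the 9 that reverse, these were Irs1, Ctsk, Elfn2 and the predicted gene Gm8212, named here because they make up the whole of that small set. Irs1, which encodes an adaptor of the insulin receptor, was higher in Y-negative cells in both settings, by 2.46 ± 0.55 (log2 ± standard error, n = 5 per group, as for all changes below) in tumors and 3.62 ± 0.66 in cultures, on means below 3 CPM in all groups. Ctsk, the gene of the collagen-degrading protease cathepsin K, was lower in both, by a log2 change of -1.77 ± 0.36 in tumors and -2.46 ± 0.58 in cultures, where its means were below 1 CPM.

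Of the 9 genes that reversed, 5 were higher in Y-negative than in Y-positive tumors and lower in Y-negative than in Y-positive cultures: Ltbp2, Ampd3, Tctn1, Myo1e and Srrm1. The other 4 went the opposite way: Lgalsl, Rtn2, Rab3b and Bzw2. Of the 9 only Ltbp2 is in one of the gene lists used here. It encodes an extracellular matrix protein of the family that binds latent TGF-beta.

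Ltbp2 (ENSMUSG00000002020, mm10 chromosome 12, 84783212 to 84876532) had the smallest adjusted p of the difference. Its level in the Y-negative cultures was 22.2 CPM (BN2), 17.8 CPM (BN3), 19.6 CPM (BN6), 24.4 CPM (BN9) and 16.8 CPM (BN10), against 35.9 CPM (MB8), 38.9 CPM (MB11), 32.5 CPM (MB17), 42.0 CPM (MB19) and 39.9 CPM (MB34) in the Y-positive cultures. In the Y-negative tumors it was 24.5 CPM (MN11), 20.9 CPM (MN12), 22.5 CPM (MN13), 20.5 CPM (MN14) and 29.4 CPM (MN15), against 12.2 CPM (MP6), 16.6 CPM (MP7), 11.8 CPM (MP8), 9.86 CPM (MP9) and 11.2 CPM (MP10) in the Y-positive tumors. The groups did not overlap in either setting: every Y-negative culture was below every Y-positive one, and every Y-negative tumor above every Y-positive one. The change was 0.93 ± 0.16 in tumors and -0.91 ± 0.16 in cultures, a difference of 1.84 ± 0.22 (edgeR adjusted p = 0.000338). Ltbp2 kept its call in all 31 alternatives in which it was fitted.

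Ampd3, which encodes an AMP deaminase of purine metabolism, showed the same pattern at a far lower level in tumors. It stood at 130 to 189 CPM in Y-negative and 250 to 323 CPM in Y-positive cultures, and at 38.2 to 62.6 CPM in Y-negative and 25.2 to 32.8 CPM in Y-positive tumors, with no overlap in either setting. The difference was 1.54 ± 0.22 (adjusted p = 0.00211). Myo1e, the gene of a class I myosin motor at the cell membrane, also had groups apart in both settings. Its mean was 120 ± 7.96 CPM (SD, n = 5) in Y-negative and 187 ± 43.8 CPM in Y-positive cultures, where MB17 stood alone at 264 CPM, and 277 ± 26.7 CPM against 181 ± 25.4 CPM in tumors. The difference for Myo1e was 1.25 ± 0.20 (adjusted p = 0.00353).

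Tctn1, a gene of the ciliary transition zone, and Srrm1, which encodes a coactivator of splicing, separated in cultures and overlapped in tumors. Tctn1 ran from 7.71 to 11.7 CPM in Y-negative and from 15.5 to 18.3 CPM in Y-positive cultures. In tumors it was 14.8 to 22.7 CPM in Y-negative and 9.45 to 14.9 CPM in Y-positive libraries, which touch at MN13 and MP10. The differences were 1.53 ± 0.23 for Tctn1 (adjusted p = 0.00211) and 1.01 ± 0.19 for Srrm1 (adjusted p = 0.0093).

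Among the 4 that were lower in Y-negative tumors and higher in Y-negative cultures, Bzw2, which encodes a regulator of translation initiation, had groups apart in both settings. It stood at 112 to 157 CPM in Y-negative and 86.8 to 102 CPM in Y-positive cultures, and at 67.9 to 83.4 CPM in Y-negative and 88.9 to 119 CPM in Y-positive tumors. Its difference was -0.90 ± 0.17 (adjusted p = 0.00986), the smallest of the 9. Rab3b, a small GTPase of regulated secretion, was apart in tumors, at 6.74 to 11.1 CPM in Y-negative and 14.3 to 19.6 CPM in Y-positive libraries, while in cultures the groups overlapped and BN10 stood highest at 19.9 CPM. Lgalsl, which encodes a galectin-related protein, and Rtn2, a reticulon of the endoplasmic reticulum, were apart in tumors and overlapped in cultures through a single Y-positive library, MB17. Their differences were -1.36 ± 0.23 for Lgalsl and -2.44 ± 0.42 for Rtn2 (adjusted p = 0.00371 for each).

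**Figure D2:**
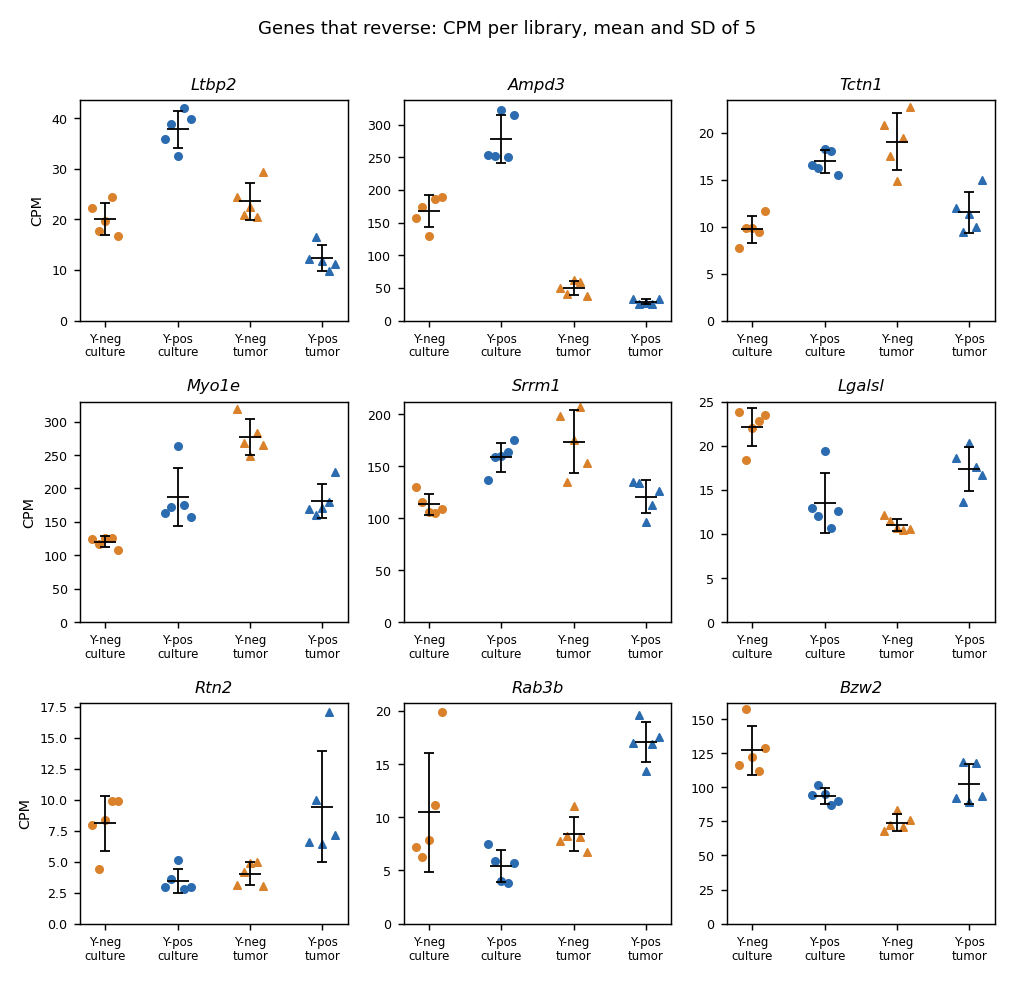
CPM per library (points, each gene on its own axis from 0) with the mean and SD of 5 for the 9 genes called in both settings with opposite signs; orange, Y-negative; blue, Y-positive; circles, cultures; triangles, tumors. In Ltbp2, Ampd3, Myo1e and Bzw2 the 2 genotypes do not overlap in cultures or in tumors.

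Of the 9 genes, 8 lost the call of their difference when MN11, MN13 and MN14 were left out together, and none did when any 1 library was left out. The other way round, without MN12 and MN15, all 9 differences kept their call. A count of reversing genes is less firm than the single differences, since it needs 3 calls at once: it was 36 without MN12 and MN15, 2 with the length slope as a covariate, 0 when tumors and cultures were fitted apart and 33 with DESeq2.

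In mammalian cells CLOCK and ARNTL (BMAL1) bind E-box sequences and switch on the Per and Cry genes, whose proteins then repress them, while the PAR bZIP factors DBP and TEF, acting through D-boxes, and the nuclear receptors NR1D1 and NR1D2 form further loops. BHLHE40 and BHLHE41 are E-box repressors. Of 18 clock genes tested, 8 were called, each with a higher genotype change in tumors than in cultures, and none with a lower one. The background is 2.18% of genes tested called higher. The median difference of the 18 genes was 1.15 on the log2 scale against -0.08 over all genes tested. It combined a median change of 0.36 in tumors (-0.04 over all genes) with -0.61 in cultures (0.03 over all genes). The 8 called genes were Per1, Per2, Per3, Cry2, Dbp, Tef, Nr1d2 and Bhlhe40.

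Promoter sequences of these genes are shown because the members that moved together are targets of the same E-box and D-box feedback. RefSeq (GRCm38.p6) windows of 250 bases before to 50 after the start were at hand for 6 of the 8 called genes, in 8 windows. Both strands were searched for the E-box letters CACGTG and the D-box letters TTATGTAA or TTACGTAA, which do not overlap one another in the windows shown. The E-box letters occurred in 2 of the 6 genes (Per1 and Tef, the latter in both of its windows) and in 8.09% of all 27025 genes with a window (7.15% of windows), and the D-box letters in 1 of the 6 (Per3) and in 1.23% of genes (1.06% of windows). Of the 18 clock genes tested, called or not, 14 had a window. The E-box letters occurred in 5 of these 14 and the D-box letters in 1, so the E-box letters were not particular to the called genes. The 250 bases before the start follow, 5′ to 3′ in the sense of the gene, with the matched letters in capitals.
Per1 (chr11:69098699-69098948, plus strand): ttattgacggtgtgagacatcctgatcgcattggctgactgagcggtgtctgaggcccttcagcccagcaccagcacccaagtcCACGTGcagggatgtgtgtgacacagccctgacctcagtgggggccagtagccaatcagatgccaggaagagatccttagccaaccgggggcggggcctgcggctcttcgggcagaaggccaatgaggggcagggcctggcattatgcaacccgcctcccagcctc
Tef (chr15:81811164-81811413, plus strand): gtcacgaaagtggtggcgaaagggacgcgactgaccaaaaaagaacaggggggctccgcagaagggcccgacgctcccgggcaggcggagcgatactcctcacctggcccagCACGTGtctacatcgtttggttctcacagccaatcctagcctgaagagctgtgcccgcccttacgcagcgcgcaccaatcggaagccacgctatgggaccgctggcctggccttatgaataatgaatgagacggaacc
Per3 (chr4:151044666-151044915, minus strand): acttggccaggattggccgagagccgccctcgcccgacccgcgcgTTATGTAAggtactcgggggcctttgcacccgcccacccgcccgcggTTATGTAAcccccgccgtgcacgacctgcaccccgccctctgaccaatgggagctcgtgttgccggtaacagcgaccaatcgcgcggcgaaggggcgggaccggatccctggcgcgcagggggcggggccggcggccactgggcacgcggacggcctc
The E-box letters begin 166 bases before the start of Per1 and 138 bases before this start of Tef, and the 2 D-box matches begin 205 and 158 bases before that of Per3. A match is a run of letters, not a measured binding site.

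The 3 Period genes did not split their difference in the same way between the settings. Per3 moved mostly in tumors: it stood at 27.97 CPM (MN11), 19.8 CPM (MN12), 35.9 CPM (MN13), 26.3 CPM (MN14) and 17.7 CPM (MN15) in Y-negative tumors and at 10.9 CPM (MP6), 7.75 CPM (MP7), 9.41 CPM (MP8), 7.92 CPM (MP9) and 10.2 CPM (MP10) in Y-positive tumors. The tumor groups did not overlap, MN12 and MN15 being the lowest of the Y-negative ones and still above MP6. In cultures Per3 was 13.6 to 20.3 CPM in Y-negative and 12.1 to 28.1 CPM in Y-positive libraries, where MB34 (12.1 CPM) lay below all Y-negative cultures. The change was 1.47 ± 0.22 in tumors (adjusted p = 0.0027) and -0.49 ± 0.21 in cultures (adjusted p = 0.213), a difference of 1.96 ± 0.30 (adjusted p = 0.00278).

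Per2 was apart in both settings. The Y-negative cultures stood at 34.9 CPM (BN2), 45.9 CPM (BN3), 33.4 CPM (BN6), 39.3 CPM (BN9) and 20.1 CPM (BN10), and the Y-positive cultures within the narrow range of 54.0 to 58.3 CPM. The Y-negative tumors stood at 50.1 CPM (MN11), 36.8 CPM (MN12), 61.0 CPM (MN13), 52.0 CPM (MN14) and 31.1 CPM (MN15), and the Y-positive tumors at 28.9 CPM (MP6), 11.3 CPM (MP7), 15.4 CPM (MP8), 10.6 CPM (MP9) and 20.7 CPM (MP10). Thus Per2 was lower in every Y-negative culture than in any Y-positive one, and higher in every Y-negative tumor than in any Y-positive one. Its tumor change was 1.41 ± 0.25 (adjusted p = 0.00757) and its culture change -0.68 ± 0.24, which was not called after adjustment (adjusted p = 0.119). The difference was 2.09 ± 0.35 (adjusted p = 0.00371).

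Per1 had the largest difference of the clock list, 2.28 ± 0.45 (adjusted p = 0.0108), and most of it came from cultures. It stood at 54.9 to 276 CPM in Y-negative and 258 to 391 CPM in Y-positive cultures, where BN9 alone reached the Y-positive range, and at 103 to 176 CPM in Y-negative and 37.9 to 91.7 CPM in Y-positive tumors, which do not overlap. The culture change of Per1 was -1.3 ± 0.32 (adjusted p = 0.0281) and its tumor change 0.98 ± 0.32, which was not called (adjusted p = 0.0966).

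Dbp, an output gene of the clock, also differed chiefly in cultures. It was 18.3 to 42.1 CPM in Y-negative and 48.1 to 100 CPM in Y-positive cultures, with no overlap, and 37.6 to 54.5 CPM in Y-negative and 20.6 to 47.5 CPM in Y-positive tumors, where only MP6 (47.5 CPM) reached into the Y-negative range. The change of Dbp was -1.33 ± 0.24 in cultures (adjusted p = 0.00718) and 0.72 ± 0.24 in tumors (adjusted p = 0.105), a difference of 2.04 ± 0.34. Tef and Cry2 were highest in Y-positive cultures and lowest in Y-positive tumors, with means of 377 ± 20.6 and 84.8 ± 29.0 CPM (SD, n = 5) for Tef and of 41.0 ± 3.5 and 11.3 ± 3.58 CPM for Cry2, and their Y-negative means lay between these in both settings. The differences were 1.53 ± 0.30 for Tef and 1.29 ± 0.26 for Cry2 (adjusted p = 0.0108 and 0.0107). In each called clock gene but Bhlhe40, MP6 was the highest of the Y-positive tumors, as the plot of clock genes by library shows.

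Nr1d2 and Bhlhe40, both repressors of clock genes, differed mainly in cultures, with culture changes of -0.69 ± 0.18 for Nr1d2 (adjusted p = 0.0345) and -1.14 ± 0.27 for Bhlhe40 (adjusted p = 0.0221) and tumor changes of 0.22 ± 0.18 and 0.40 ± 0.26 that were not called. Of the 10 clock genes not called, Nr1d1, Bhlhe41 and Ciart had positive differences of 1.69 ± 0.51, 1.01 ± 0.30 and 1.37 ± 0.42 with adjusted p from 0.0578 to 0.0596. The activator genes themselves were not called: the difference was 0.34 ± 0.24 for Clock (adjusted p = 0.406) and -0.19 ± 0.25 for Arntl (adjusted p = 0.705). Cry1, Nfil3, Csnk1e and Csnk1d were also not called, and 16 of the 18 differences were positive.

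**Figure D3:**
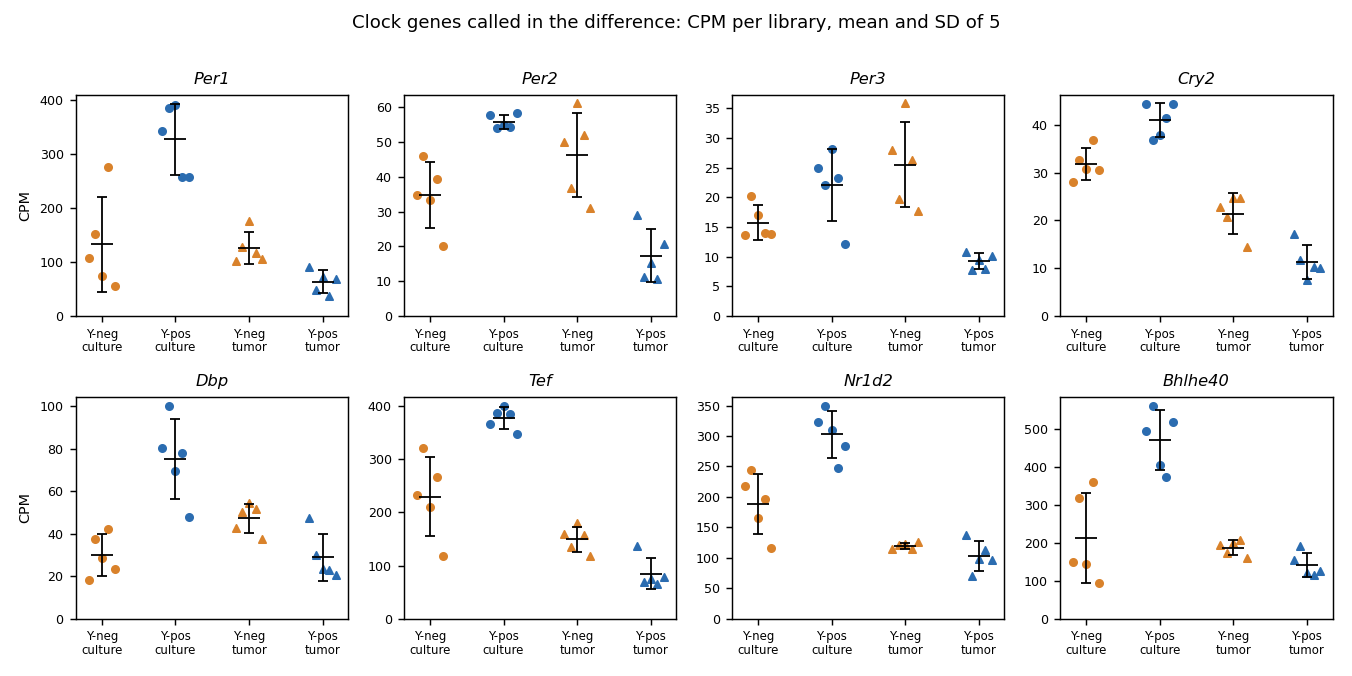
CPM per library (points, each gene on its own axis from 0) with the mean and SD of 5 for the 8 clock genes called in the difference; orange, Y-negative; blue, Y-positive; circles, cultures; triangles, tumors. In each panel the Y-positive mean is above the Y-negative mean in cultures and below it in tumors.

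Within tumors 4 of the 18 genes were called higher, and within cultures 5 were called lower (background 1.64% and 0.84%). The count of 8 called clock genes was 11 without MN12 and MN15, 0 without MN11, MN13 and MN14 (where 15 of the 18 differences stayed positive, with a median of 0.96), and 6 to 11 with any 1 library left out. With the length slope as a covariate it was 8, with a median difference of 0.98. Over all genes tested 621 were called, 2009 without MN12 and MN15 (40.3% of them higher) and 1 without MN11, MN13 and MN14. That total was 172 to 1013 with any 1 library left out and 584 with the covariate.

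Genes for the replicative helicase, its loading and the supply of deoxynucleotides are switched on together before S phase, and those of the spindle and its checkpoint later in the cycle. Of 24 replication genes tested, 4 were called with a lower genotype change in tumors than in cultures and 0 with a higher one, against 2.47% of genes tested called lower. All 24 differences were negative, with a median of -0.64. The median change was 0.48 in cultures and -0.19 in tumors.

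Mcm7, a subunit of the replicative helicase, led the list. It stood at 128 CPM (BN2), 105 CPM (BN3), 136 CPM (BN6), 95.4 CPM (BN9) and 128 CPM (BN10) in Y-negative cultures and at 58.7 CPM (MB8), 61.4 CPM (MB11), 69.2 CPM (MB17), 82.5 CPM (MB19) and 83.6 CPM (MB34) in Y-positive cultures. In tumors it was 204 to 241 CPM in Y-negative and 248 to 292 CPM in Y-positive libraries. The groups were apart in both settings and in opposite order. The change was 0.74 ± 0.13 in cultures (adjusted p = 0.00664) and -0.30 ± 0.13 in tumors, where it was not called (adjusted p = 0.192), and the difference was -1.04 ± 0.18 (adjusted p = 0.00535).

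Rrm2, the small subunit of ribonucleotide reductase, Cdc45, which activates the helicase, and Gins1, a subunit of the GINS complex, were the others called, at -0.76 ± 0.19, -0.89 ± 0.22 and -1.13 ± 0.32. Rrm2 was not called without MB11, MN11 or MN14. E2F factors act on many such promoters, so the letters TTTCCCGC, TTTGGCGC or TTTCGCGC were searched on both strands. They occurred in 8 of the 19 tested replication genes with a RefSeq window and in 1 of the 3 called genes with one (Mcm7), against 2.12% of all 27025 genes with a window. The 250 bases before the start of Mcm7 are shown, 5′ to 3′ in the sense of the gene, with the match in capitals, which here reads as the reverse complement.
Mcm7 (chr5:138171884-138172133, minus strand): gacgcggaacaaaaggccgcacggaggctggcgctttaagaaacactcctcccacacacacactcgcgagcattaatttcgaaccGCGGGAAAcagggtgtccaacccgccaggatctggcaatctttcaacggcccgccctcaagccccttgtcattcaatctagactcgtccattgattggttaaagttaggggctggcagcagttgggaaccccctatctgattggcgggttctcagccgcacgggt
This match begins 165 bases before the start. The window holds a further match that begins at base 17 after the start, outside the bases shown.

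Of 22 genes of mitosis and the spindle, 2 were called, both with a lower genotype change in tumors than in cultures (background 2.47%): Birc5, which encodes survivin, at -1.47 ± 0.31 and Ccnb2, a B-type cyclin, at -1.25 ± 0.28 (adjusted p = 0.0141 and 0.0205). The median difference of the list was -0.38, with 17 of 22 negative, and 4 of its genes were called without BN3, 3 without MN12 and MN15, and 0 without MN11, MN13 and MN14. Mki67, the common marker of cycling cells, had a difference of 0.19 ± 0.40 (adjusted p = 0.821). Outside these lists, the genes that changed in cultures and not in tumors included Pbk, a mitotic kinase, and Esco2, an acetyltransferase of sister chromatid cohesion. Esco2 stood at 4.37 to 16.5 CPM in Y-negative and 2.31 to 4.2 CPM in Y-positive cultures, which do not overlap, and at 26.6 to 33.1 and 29.4 to 41.2 CPM in Y-negative and Y-positive tumors, which do. Its difference was -2.15 ± 0.35 (adjusted p = 0.00366). The count of 4 called replication genes was 9 without MN12 and MN15, 0 without MN11, MN13 and MN14, and 1 to 8 with any 1 library left out, with 1 without MN11 or MN14, 2 without MB8 or MB11 and 8 without BN9 or MB34. No fit called a replication gene higher. Calls over all genes tested also moved, from 621 to 2009 without MN12 and MN15 (40.3% of them higher) and to 1 without MN11, MN13 and MN14. They were 172 to 1013 with any 1 library left out.

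**Figure D4:**
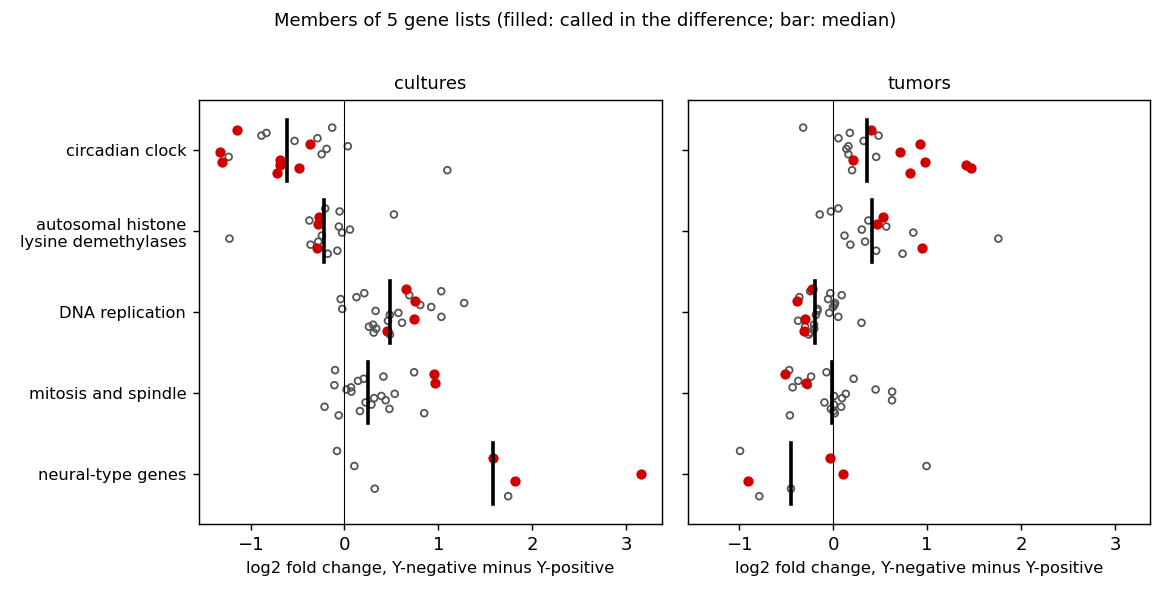
Log2 fold change of Y-negative against Y-positive libraries in cultures (left) and in tumors (right) for the tested members of 5 gene lists; filled red points were called in the difference, and black bars are list medians. The clock median is -0.61 in cultures and 0.36 in tumors, and the replication median is 0.48 and -0.19.

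The next genes changed in cultures and were not called in tumors. The largest difference of the 3 called neural-type genes (of 7 tested, all 3 with a lower change in tumors, background 2.47%, the others being Syngr1 and Hes6) was that of Nes, which encodes the intermediate filament nestin. Nes stood at 20.4 CPM (BN2), 8.6 CPM (BN3), 16.6 CPM (BN6), 28.9 CPM (BN9) and 27.8 CPM (BN10) in Y-negative cultures and at 0.673 to 3.1 CPM in Y-positive ones. In tumors it was 18.5 to 36.1 CPM in Y-negative and 17.9 to 47.7 CPM in Y-positive libraries. The genotypes were thus fully apart in cultures and overlapped in tumors, where the Y-positive libraries lay in the range of the Y-negative cultures or above it and MP7 exceeded every other library. The change was 3.15 ± 0.37 in cultures (adjusted p = 0.000174) and 0.11 ± 0.32 in tumors (adjusted p = 0.878), a difference of -3.05 ± 0.48 (adjusted p = 0.00278). Nestin is also made by vessel and other stromal cells, and the summed CPM of 14 endothelial markers listed in tumors was 141 to 245 in Y-negative and 145 to 208 in Y-positive tumors. Their part in the level of Nes was not tested.

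Hes6, which encodes a bHLH protein of neural and endocrine differentiation, followed Nes, with a mean of 21.8 CPM in Y-negative and 7.33 CPM in Y-positive cultures and of 18.5 and 18.9 CPM in tumors. Its difference was -1.61 ± 0.33 (adjusted p = 0.0127). None of the 7 neural-type genes was called without MN11, MN13 and MN14, and without MN12 and MN15 there were 3 called lower and 1 higher. Noa1, which encodes a mitochondrial GTPase, had a lower adjusted p than any other gene of this class. It was 18.1 to 38 CPM in Y-negative and 11.3 to 15.3 CPM in Y-positive cultures, and 28.3 to 35.3 CPM in Y-negative and 38.2 to 45.8 CPM in Y-positive tumors, apart in both settings. The change of Noa1 was 1.14 ± 0.17 in cultures (adjusted p = 0.00232) and -0.39 ± 0.16 in tumors (adjusted p = 0.175), and the difference -1.53 ± 0.23 (adjusted p = 0.00211).

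Gusb, the lysosomal beta-glucuronidase, and Riox2, a ribosomal oxygenase, followed the same order, with differences of -1.17 ± 0.20 and -1.27 ± 0.22 (adjusted p = 0.00371 for each). Adamts4, a matrix protease gene, was 17.4 to 39.4 CPM in Y-negative and 8.38 to 12.9 CPM in Y-positive cultures, while its means in tumors were 10.2 ± 2.72 and 10.2 ± 2.02 CPM. Its difference of -1.26 ± 0.31 (adjusted p = 0.0278) was not called without BN6 or MB11. Tcn2, which encodes the vitamin B12 carrier transcobalamin, had a difference of -3.25 ± 0.55 on low culture levels, 0.661 to 5.87 CPM in Y-negative and 0.183 to 0.945 CPM in Y-positive cultures, where BN3 overlaps the latter.

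Among genes changed in tumors and not called in cultures, those with a higher change in tumors included, beside Per3 and Per2, Gigyf1, which encodes an adaptor of translational repression, Mbd6, a protein with a methyl-CpG-binding type domain, Helz2, a helicase-like nuclear coactivator, Bicra, a subunit of a SWI/SNF complex, Mapk8ip3, a scaffold of JNK signalling and axonal transport, and the transcription factor Zbtb20. Gigyf1 stood at 74.5 to 102 CPM in Y-negative and 38 to 53.5 CPM in Y-positive tumors, and at 49.2 to 68.1 and 64.1 to 77.5 CPM in Y-negative and Y-positive cultures. Its tumor groups are apart and its culture groups overlap, BN9 lying above MB17 and MB34. The change was 0.93 ± 0.13 in tumors (adjusted p = 0.00182) and -0.34 ± 0.13 in cultures (adjusted p = 0.145), a difference of 1.28 ± 0.18 (adjusted p = 0.00211). Mbd6 was alike, at 41.9 to 68.6 CPM in Y-negative and 25.7 to 30 CPM in Y-positive tumors, with a difference of 1.29 ± 0.19.

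Zbtb20 divided the Y-negative tumors in the way the library slopes do. It was 61.3 CPM (MN11), 27.2 CPM (MN12), 58.6 CPM (MN13), 62.9 CPM (MN14) and 30.2 CPM (MN15), against 13.6 to 21.7 CPM in Y-positive tumors, so that MN12 and MN15 lay well below the other Y-negative tumors and still above every Y-positive one. The difference of 1.86 ± 0.32 became 1.10 (adjusted p = 0.13) without MN11, MN13 and MN14, 2.17 without MN12 and MN15 and 1.25 once the length slope was a covariate (adjusted p = 0.00378).

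Fewer genes had a lower change in tumors. Efemp2, an extracellular matrix glycoprotein gene, was 2.53 to 4.28 CPM in Y-negative and 7.75 to 11 CPM in Y-positive tumors, with no overlap, and under 1 CPM in all 10 cultures. Its difference was -2.80 ± 0.48 (adjusted p = 0.00371). The summed CPM of 20 fibroblast and collagen markers was 2060 to 4660 in Y-negative and 2930 to 4870 in Y-positive tumors and overlapped widely, and its part in the result was not tested. Krt14, a keratin of basal epithelium, was 16.8 to 24.7 CPM in Y-negative and 70.6 to 147 CPM in Y-positive tumors and at most 3.33 CPM in cultures. The 9 skin keratinocyte markers listed in tumors summed to 27.3 to 43.1 CPM in Y-negative and 92.4 to 178 CPM in Y-positive tumors. Krt14 itself is counted in this sum and makes up most of it, so the sum largely repeats the values of Krt14. The part of skin keratinocytes in the result was not tested. The difference for Krt14 was -2.41 ± 0.66 (adjusted p = 0.0413), a call that 13 of the 20 fits with 1 library left out did not keep.

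Anpep, the gene of the membrane aminopeptidase CD13, had a rise in tumors without an opposite change in cultures. It was 311 CPM (MN11), 176 CPM (MN12), 362 CPM (MN13), 346 CPM (MN14) and 207 CPM (MN15) in Y-negative and 25.1 to 50.4 CPM in Y-positive tumors. In cultures it ranged from 6.36 to 41.1 CPM in Y-negative and from 8.84 to 30.7 CPM in Y-positive libraries. The tumor groups are far apart and the culture groups interleave. The change was 2.92 ± 0.39 in tumors (adjusted p = 0.00182) and 0.54 ± 0.37 in cultures (adjusted p = 0.454), and the difference was 2.38 ± 0.53 (adjusted p = 0.0185). Host cells also express this gene. The 12 neutrophil markers summed to 247 to 388 CPM in Y-negative and 175 to 250 CPM in Y-positive tumors. The 6 of them listed in cultures summed to 207 to 366 CPM in Y-negative and 162 to 488 CPM in Y-positive cultures. This sum is therefore not particular to host cells. The sum of fibroblast and collagen markers was 4200 to 4660 CPM in MN11, MN13 and MN14 and 2060 and 2620 CPM in MN12 and MN15, which were also the lowest Y-negative tumors for Anpep, and 2930 to 4870 CPM in Y-positive tumors. The part of these cells in the result was not tested.

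The Y-linked genes Kdm5d and Uty belong to families with autosomal members, which were listed for that reason. Of 16 autosomal lysine demethylase genes tested, 3 were called, all with a higher change in tumors (background 2.18%). Of the 16 differences 15 were positive, against 44.2% over all genes tested, with a median of 0.62 (tumors 0.42, cultures -0.22). Kdm6b, of the same family as Uty, which removes methyl groups from lysine 27 of histone H3, was 48.4 to 76.9 CPM in Y-negative and 23.7 to 45.6 CPM in Y-positive tumors, with no overlap. Its difference was 1.24 ± 0.27 (adjusted p = 0.0187). Kdm3a and Kdm2a were called at 0.75 ± 0.19 and 0.81 ± 0.22. Kdm5a and Kdm5b, of the same family as Kdm5d, had differences of 0.62 ± 0.26 and 0.54 ± 0.38 that were not called (adjusted p = 0.149 and 0.417). These are long transcripts: the median gene length of the list was 6388 bases against 3976 over all genes tested. Once the length slope was a covariate the median difference of the list was 0.38, with 12 of 16 positive and 3 called. Kdm6b and Kdm3a kept their calls there, Kdm2a lost its call and Jmjd6 gained one (edgeR adjusted p = 0.0874 and 0.0408). Without MN11, MN13 and MN14 the median was 0.35 and none was called, and leaving out MB11, MB17, MN11, MN14, MP8 or MP9 left 1 called gene, while leaving out MN12 or MP6 gave 6, MN15 gave 5, and MN12 and MN15 together gave 8. Over all genes tested the calls went from 621 to 1 without MN11, MN13 and MN14. Without MN12 and MN15 they went to 2009, of which 40.3% were higher.

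Of 41 gene lists, with 517 of their 715 genes tested, 22 held at least 1 called gene and 19 held none, where 4.65% of all genes tested were called. Of 28 hypoxia and glycolysis genes, 2 were called, both with a higher genotype change in tumors than in cultures (background 2.18%, as for the splicing and immediate early lists that follow): Vegfa, the vascular growth factor gene, at 1.01 ± 0.24 and Ndrg1, a hypoxia-induced gene, at 0.93 ± 0.23. Vegfa was not called without MN11 or MP8, nor Ndrg1 without BN10, MB8, MB11, MN11, MN14 or MP8. Vegfa was 132 to 187 CPM in Y-negative and 83 to 114 CPM in Y-positive tumors, with no overlap. The glycolytic genes Pkm, Gapdh and Ldha had differences of 0.05, -0.03 and 0.06, and the list median was 0.04. Of 16 splicing kinases and SR factors, 2 were called with a higher change, Clk4 at 1.19 ± 0.22 and Son at 0.86 ± 0.24, the latter not called in 13 of the 20 fits with 1 library left out. Of 18 immediate early genes 2 were called with a higher change, the AP-1 members Fosl2 at 1.20 ± 0.26 and Jun at 1.11 ± 0.27, which was not called without MB11, MN11, MN14, MP8 or MP9.

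Of 17 NRF2 antioxidant targets 0 were called by edgeR, with a list median of -0.69. Of these, 8 had an unadjusted p under 0.05, 2 were called by DESeq2 and 7 by limma-voom with quality weights. Over all 13341 genes tested these counts were 3044, 1257 and 3518, which is the background also for the lists that follow. Of 21 subunits of oxidative phosphorylation and 26 cytosolic ribosomal protein genes 0 were called by edgeR, and their list medians were each -0.32. An unadjusted p under 0.05 was reached by 5 and 3 of them, DESeq2 called 1 and 0, and limma-voom with quality weights called 11 and 16. Both of these last lists are of short genes (median lengths 2313 and 2219 bases), and their medians were -0.04 and 0.12 once the length slope was a covariate. Globin and immunoglobulin genes were called on low and uneven levels in Y-positive cultures, beside levels at or near 0 in Y-negative ones. Hba-a1 was 0 to 8.91 CPM in Y-positive cultures, highest in MB17, and 0 to 0.111 CPM in Y-negative ones. The calls of Hba-a1, Hbb-bs and Ighm did not hold in limma-voom. Among the 621 called genes, 36 were below 1 CPM on average in both culture groups.

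Called genes differed in length by direction. The 291 genes with a higher change in tumors had a median length of 8131 bases, the 330 with a lower change 3206 bases, and all genes tested 3976 bases. In the quartile of longest genes, 5.58% were called higher and 0.99% lower, and in the quartile of shortest genes 0.719% and 2.97%. The median change in tumors went from -0.24 in the shortest to 0.21 in the longest quartile, while in cultures it was 0.04 and -0.01, so the relation to length was seen in tumors. With each library's length slope as a covariate, centred within cultures and within tumors, 584 genes were called, of which 354 were among the 621. All 621, which were picked on these same libraries, kept the direction of their difference. In the same fit the tumor calls fell from 292 to 12 and the culture calls rose from 462 to 1011. Of the genes described above, Ltbp2, Ampd3, Tctn1, Myo1e, Per1, Per2, Per3, Dbp, Mcm7, Nes and Gigyf1 kept their calls there, and Jun, Son, Kdm2a, Krt14 and Gins1 did not.

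**Figure D5:**
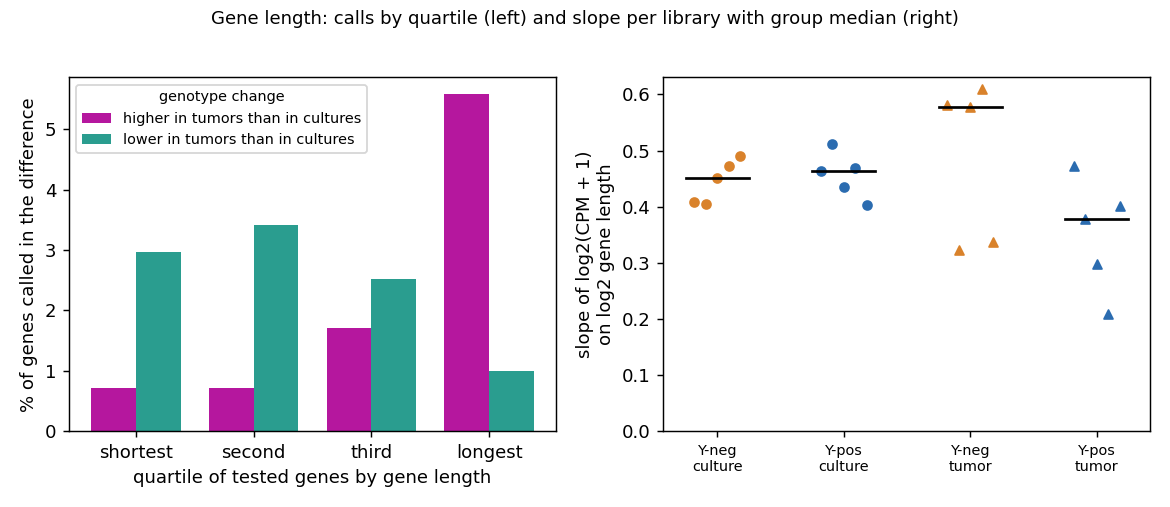
Left, percent of tested genes in each quartile of gene length whose genotype change was called higher (magenta) or lower (green) in tumors than in cultures. Right, slope of log2(CPM + 1) on log2 gene length per library, with the group median as a bar (triangles, tumors; circles, cultures; orange, Y-negative; blue, Y-positive): MN12 and MN15, at 0.322 and 0.337, lie below the other 3 Y-negative tumors.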

How the data were processed

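RNA-seq was measured in 20 libraries of MB49 cells. Per the submitters' processing notes, cutadapt 2.3, STAR 2.7.0d, RSEM 1.3.1, FastQC 0.11.5, MultiQC 1.8 and the build mm10 were used; how strand was handled is not given in the sources used here. Values of overlapping genes or close paralogs are therefore uncertain. Per the file headers the authors' tables give read counts, which are whole numbers and were the only columns used. Tables list 14701 genes (cultures) or 28025 (tumors), 14650 in both. The 18 gene names altered to dates were replaced through the ID.

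TMM factors came from all genes in both kinds of table. Autosomal genes past filterByExpr (minimum count 10, minimum total 15) were fitted in edgeR 4.0.16 (R 4.3.3) as 4 group means with no covariate, by the quasi-likelihood F-test with Benjamini-Hochberg adjustment over 13341 genes; the standard error is the change divided by the square root of F. CPM of single genes uses TMM-scaled library sizes. The summed CPM of marker lists uses each library's total reads over all genes in its table, with no TMM factor. The script was tested on simulated data. Counts of 40 same-group pairs differed by chi-square values of 7.59 to 177 per degree of freedom, so no library was merged. Alternatives used DESeq2 1.42.0 and limma 3.58.1, RLE scaling, other filters, a slope covariate, separate fits and left-out libraries. Genes were named by adjusted p of the difference, leaving out predicted genes and those under a mean of 5 CPM in all groups: the top 10 in each direction, up to 12 reversing and 6 of the wider class, up to 10 changed in each setting alone, and up to 2 called genes per list. Other list members, Irs1, Ctsk, Elfn2 and Gm8212 are named outside this rule, after their values were seen. Results on some genes are not reported here. The gene lists, the genes and the contrast were chosen with earlier results of these data known, so list counts are descriptions and no list was tested.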

Additional observations from a re-analysis of the deposited data

Results flagged for a closer look

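The genotype change differed between tumors and cultures, by edgeR's test of the difference itself, for 55 of the 74 genes named by rank. That share is set by the naming rule, which takes an uncalled gene only from a list with no called member. Over all 13341 genes tested, 621 (4.65%) were called. Positive values mean a higher Y-negative minus Y-positive change in tumors, on the log2 scale.

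Higher in tumors were Ltbp2 (1.84), Ampd3 (1.54), Gigyf1 (1.28), Mbd6 (1.29), Tctn1 (1.53), Helz2 (1.4), Myo1e (1.25), Zbtb20 (1.86), Bicra (1.47), Mapk8ip3 (1.32), Srrm1 (1.01) and the clock genes Per3 (1.96), Per2 (2.09) and Dbp (2.04). The other genes with a higher change, named from lists, were Clk4 (1.19), Fosl2 (1.2), Anpep (2.38), Kdm6b (1.24), Adamts1 (1.22), Vegfa (1.01), Jun (1.11), Kdm3a (0.75), Ndrg1 (0.93), Lama5 (1.34), Pvr (0.95), Zeb2 (0.93), Gata3 (1.31), Son (0.86), Ctsz (1.28) and Smad7 (1.0). Fitted values of 6.52 for Hba-a1, 8.65 for Hbb-bs and 4.66 for Ighm rest on Y-negative cultures at or near 0 reads and are no measure of size. Ctsz was lower in Y-negative than in Y-positive tumors, at 60.3 to 88.1 against 103 to 136 CPM. Its positive value rests on cultures at no more than 1.15 CPM, and 22 of 31 alternatives did not keep its call.

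Lower in tumors were Noa1 (-1.53), Nes (-3.05), Esco2 (-2.15), Syngr1 (-2.72), Lgalsl (-1.36), Pbk (-1.36), Fastkd5 (-1.71), Tcn2 (-3.25), Riox2 (-1.27), Rtn2 (-2.44), Gusb (-1.17), Efemp2 (-2.8), Mcm7 (-1.04), Rab3b (-1.97) and Bzw2 (-0.9). From lists came Birc5 (-1.47), Ccnb2 (-1.25), Shmt1 (-0.88), Adamts4 (-1.26), Rrm2 (-0.76), Krt14 (-2.41) and Fdft1 (-1.01).

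In 16 of the 220 groups of 5 libraries of these genes, 1 library stood far from the other 4 by Dixon's criterion (critical value 0.71), which chance alone meets in about 1 in 20 groups. MB17 had 4 of them: Myo1e at 264 CPM (others 158 to 176 CPM), Lgalsl at 19.4 CPM (others 10.7 to 13.0 CPM), Hba-a1 at 8.91 CPM (others 0 to 2.4 CPM) and Fdft1 at 15.4 CPM (others 8.48 to 9.8 CPM). In the other cultures these were Clk4 in MB19 at 58.7 CPM, Krt14 in MB34 at 3.33 CPM, Ccnb2 in BN10 at 40.2 CPM, Son in BN10 at 171 CPM, Vegfa in BN3 at 395 CPM and Zeb2 in BN9 at 59.1 CPM. In tumors they were Nes in MP7 at 47.7 CPM, Fastkd5 in MP7 at 10.9 CPM, Fdft1 in MP9 at 134 CPM, Syngr1 in MN12 at 2.72 CPM, Shmt1 in MN12 at 17.0 CPM and Ighm in MN13 at 35.1 CPM.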

How the results depend on the processing

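The direction of all 621 differences stayed the same in every alternative fit that tested them, except for 1 gene without MN13, whereas the number of calls moved widely. Each fit reuses most or all of the libraries on which the 621 genes were picked, so a kept direction is largely given in advance. Counts are given as called in the difference, reversing, changed in tumors only, changed in cultures only, called in tumors and called in cultures (621, 9, 134, 205, 292 and 462 as reported). DESeq2 gave 1257, 33, 353, 463, 757 and 899. Limma-voom with quality weights gave 3518, 172, 2600, 311 and 5515 for the first 5, and without weights 96 changed in cultures only and 211 called in cultures. With the length slope as a covariate 2 reversed, 6 changed in tumors only, 354 in cultures only, and 12 and 1011 were called in tumors and cultures. With length and GC slopes together, added after seeing the data, 273 were called, 4 reversed, 41 changed in tumors only and 74 were called in tumors. Separate fits gave 0 reversing, 1 changed in cultures only and 1 called in cultures. An unadjusted p under 0.05 gave 3044, and 333 called genes had groups apart in at least 1 setting. The voom fit without weights and the fits leaving out sets of libraries were also added after seeing the data. Without MN12 and MN15, 2009 were called, 36 reversed, 1276 changed in tumors only and 2716 were called in tumors, and the median of all differences moved from -0.08 to -0.162. Without MN11, MN13 and MN14 the values were 1, 0, 0, 1 and 0 for the first 5. Leaving out 1 library at a time gave 172 (without MN11) to 1013 (without BN9) called, 1 (MN11) to 19 (BN9) reversing, 11 (MP9) to 344 (MN12) changed in tumors only, 79 (MB17) to 419 (BN9) changed in cultures only, 17 (MN11) to 681 (MN12) called in tumors and 178 (MB17) to 828 (BN9) called in cultures. RLE scaling (617), no filter on low counts (594), a filter at a mean of 5 CPM (655) and keeping chromosomes X, Y and M (614) stayed within 1.5 times of 621. The causes of these shifts were not tested. Depth limits the 36 called genes below 1 CPM in both culture groups. No paired analysis was possible because the groups share no replicate numbers in the labels.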
